A study of Mus musculus with 3 samples.

Results

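The genes of the proteasome, the barrel-shaped protease complex that degrades ubiquitin-tagged proteins, were taken as every protein-coding mouse gene whose symbol starts with Psma, Psmb, Psmc, Psmd, Psme, Psmf or Psmg. The rule used no measured value and gave 50 of the 18130 coding genes with a level, represented by 219 of the 84660 transcripts listed. Total RNA of mouse cortical neurons, labelled as wild type (WT) with the treatment CON, had been extracted on RNeasy columns and made into libraries with the KAPA RNA HyperPrep kit. The 3 libraries form 1 group, named replicates 1 to 3 after their titles, and belong to a study of DNA supercoiling and topoisomerases in neurons. The labels name no other genotype, agent, age or culture time. With 1 group the comparisons are between genes inside each library.

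The 20S core is a stack of rings. Outer alpha rings gate the entry, and inner beta rings hold the proteolytic sites, which are formed by Psmb5, Psmb6 and Psmb7. The 19S regulatory particle caps the core: its base has a ring of ATPases that unfold substrates, and its lid removes ubiquitin. Interferon induces the replacement catalytic subunits Psmb8, Psmb9 and Psmb10, which form the immunoproteasome of immune cells. In neurons the proteasome is known for clearing damaged proteins and for regulating proteins at the synapse.

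Levels are in TPM, a relative transcript abundance scaled for transcript length. Each gene is represented by the coding transcript with the highest product of mean TPM and exonic length, which is the one with the most reads. The authors' TPM sum to 1000000 over all transcripts, which share reads, so values of 1 transcript per gene are lower than TPM scaled over genes. The coding transcripts used held 33542845, 29644501 and 29137494 reads in replicates 1 to 3. Errors are SD over the 3 libraries. The labels do not give the cultures behind the libraries, and their spread may be technical. With 3 libraries an exact sign-flip permutation test, run two-sided, cannot give a p below 0.25, so no difference between genes could reach 0.05.

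Markers of several cell types were present. All 8 pan-neuronal markers exceeded 1 TPM, from Elavl4 at 19.4 ± 4.21 to Stmn2 at 687 ± 55.6 TPM (n = 3). All 6 astrocyte markers did so too, from Aldh1l1 at 10.8 to Slc1a3 at 184 TPM. So did 5 of 6 oligodendrocyte lineage markers, from Mobp at 0.018 to Olig1 at 34.4 TPM, and 5 of 6 proliferation markers, from Ccnb1 at 0.61 to Pcna at 8.36 TPM. Of 8 microglial markers Aif1 alone did, at 1.03 TPM, and Tmem119 was listed at 0. No endothelial marker of 6 did; Kdr was highest at 0.374 TPM and Cldn5 was listed at 0. In such bulk RNA, fewer cells of a type and less RNA per cell cannot be told apart.

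Of the 50 genes, 45 had a mean of at least 1 TPM, which is called expressed here. That is 90%, against 61.8% of all coding genes. Outside the expressed genes lay the inducible subunits Psmb8 and Psmb9, the core subunits of restricted tissues Psma8 and Psmb11, and Psme2b, a single-exon copy of Psme2. The 31 genes of the constitutive 20S core and 19S particle had medians of 59.2, 57.7 and 61.3 TPM in replicates 1 to 3. Expressed coding genes had a median of 8.22 ± 0.144 TPM. The difference was 2.84 ± 0.07 in log2(TPM + 0.1) units, which as a TPM ratio is 7.23 ± 0.33, and had the same sign in each library (exact sign-flip p = 0.25, n = 3). Each of the 31 genes was expressed, from Psma3 at 12.9 to Psmb1 at 124 TPM.

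**Figure D1:**
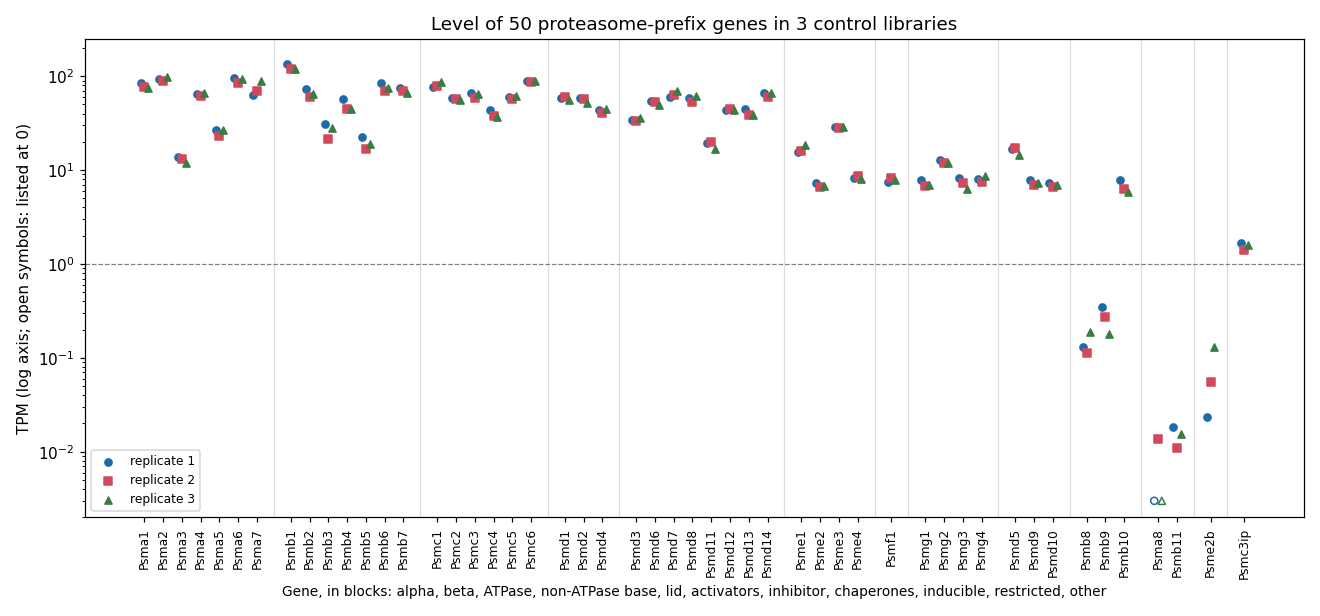
TPM on a log axis for the 50 genes, in blocks by their place in the complex, with a symbol for each of the 3 libraries and open symbols for genes listed at 0. The constitutive core and 19S genes lie between 12.9 and 124 TPM on average, and the inducible Psmb8 and Psmb9 lie below 1 TPM.

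The constitutive catalytic genes stood above their inducible counterparts in every library. Psmb5, which gives the chymotrypsin-like site and lies on chromosome 14 (54614119 to 54618022, minus strand, GRCm38), had 22.8, 16.9 and 19.03 TPM. Psmb8, which replaces it in the immunoproteasome, lies on chromosome 17 (34197721 to 34201454, plus strand) and had 0.132, 0.114 and 0.188 TPM. These values of Psmb8 rest on 11, 8 and 14 reads. The exact 95% Poisson intervals of those reads run from 5.49 to 19.7, from 3.45 to 15.8 and from 7.65 to 23.5, and they cover counting error only. The libraries of the pair did not overlap. The difference was 6.33 ± 0.29 on the log2(TPM + 0.1) scale, which understates differences of low genes (exact sign-flip p = 0.25, n = 3). With a pseudocount of 1 it was 4.16. The TPM ratio was 141 ± 36.5.

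Psmb6, which gives the caspase-like site, had 83.7, 68.8 and 75.6 TPM. Its counterpart Psmb9, which lies 9956 bases from Psmb8 in the region of the histocompatibility genes (chromosome 17, 34181987 to 34187764, minus strand), had 0.347, 0.274 and 0.178 TPM from 24, 16 and 11 reads. The difference was 7.72 ± 0.32 on the log2 scale and the TPM ratio 306 ± 103 (exact sign-flip p = 0.25, n = 3). With coding transcripts added, the log2 difference was 6.30, and that of Psmb5 and Psmb8 was 5.43. Of the 8 microglial markers, 4 had the same order of TPM over the libraries as Psmb9, among them Tyrobp with 27, 8 and 3 reads and C1qa with 31, 23 and 11 reads. Also among the 4 were Csf1r with 28, 19 and 19 reads and Cx3cr1 with 8, 6 and 6 reads. Their reads were equal in replicates 2 and 3, so scaling alone set their TPM order there. The remaining markers did not follow that order. Aif1 had 39, 57 and 28 reads and was highest in replicate 2, as was Itgam. P2ry12 was highest in replicate 3, and Tmem119 was at 0. The summed level of the 8 microglial markers was 2.68, 2.62 and 1.32 TPM, and their part in the Psmb9 reads was not tested.

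Psmb7, which gives the trypsin-like site, had 74.7, 70.1 and 67.0 TPM. Psmb10, its inducible counterpart on chromosome 8, had 7.87, 6.34 and 5.89 TPM and was the only inducible catalytic gene above 1 TPM. Psmb7 lay 3.39 ± 0.14 higher on the log2 scale, a TPM ratio of 10.6 ± 1.004, again in each library (exact sign-flip p = 0.25, n = 3). Among the inducible genes, Psmb10 thus stood far above both others, and the values of Psmb8 and Psmb9 overlapped.

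**Figure D2:**
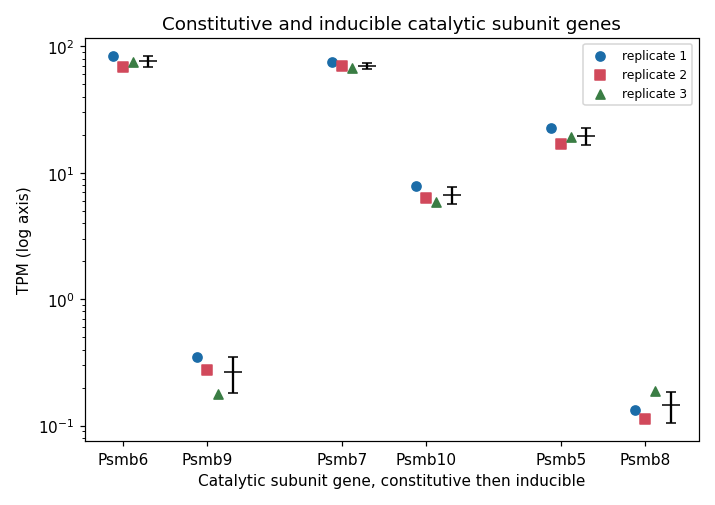
TPM on a log axis for the 3 pairs of constitutive and inducible catalytic subunit genes, with a symbol for each library. The pairs do not overlap, and the ratio is 141 for Psmb5 over Psmb8, 306 for Psmb6 over Psmb9 and 10.6 for Psmb7 over Psmb10.

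The sequences just before the transcription starts of these genes are shown for Psmb5, Psmb6 and the inducible Psmb9, since known regulators of proteasome genes bind such regions. Nfe2l1, a factor that induces proteasome genes when the proteasome is impaired, binds antioxidant response elements, whose core was searched as TGACNNNGC. Interferon acts in part through interferon-stimulated elements, whose core was searched too. The NF-Y box was searched as CCAAT and the TATA box as TATAAA, each on both strands. The 150 bases before the RefSeq start (GRCm38.p6) are printed 5′ to 3′ in the direction of transcription. RefSeq and GENCODE starts differ: the Psmb9 window lies wholly inside the GENCODE span of the gene given above, downstream of its outermost start, and the Psmb5 window overlaps the first bases of its span. Capitals mark TGACNNNGC at Psmb5 (chr14:54617996-54618145, minus strand) and Psmb6 (chr11:70525207-70525356, plus strand), and the reverse complement of CCAAT at Psmb9 (chr17:34187331-34187480, minus strand).
Psmb5: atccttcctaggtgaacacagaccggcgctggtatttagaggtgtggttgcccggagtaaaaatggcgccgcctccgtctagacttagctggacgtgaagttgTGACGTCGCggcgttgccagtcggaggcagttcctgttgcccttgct
Psmb6: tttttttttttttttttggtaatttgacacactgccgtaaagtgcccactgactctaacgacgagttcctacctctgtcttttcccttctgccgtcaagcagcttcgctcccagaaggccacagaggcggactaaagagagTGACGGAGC
Psmb9: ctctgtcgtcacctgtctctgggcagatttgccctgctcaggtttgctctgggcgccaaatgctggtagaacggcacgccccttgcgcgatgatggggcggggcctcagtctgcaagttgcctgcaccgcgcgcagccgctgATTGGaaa

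The same motifs were counted over windows of 250 bases before the start. RefSeq windows were matched for 42 of the 50 genes and for 17492 coding genes. No window was matched for Psma8, Psmb1, Psmb2, Psmb7, Psmc3, Psmd3, Psmd7 and Psmg2. TGACNNNGC was found in 5 of 42 (11.9%), against 11.99% of all coding genes: Psmb5, Psmb6, Psmc6, Psmd12 and Psmd9. CCAAT was found in 15 of 42 (35.7%), against 39.5%. TATAAA was found in 4 of 42 (9.52%), against 13.7%. The core of the interferon-stimulated element was found in Psmb3, Psmd4 and Psmd9 (7.14%), against 3.48%. It was found in 0 of the 3 inducible catalytic genes. The windows of the set held a median of 57.4% G or C and 14 CpG, against 55.2% and 10 over all coding genes. A match describes letters only.

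The alpha ring genes Psma1 to Psma7 had a median of 69.7 ± 5.09 TPM. With transcripts chosen by reads, Psma2 was highest with 94.6, 88.6 and 98.3 TPM, followed by Psma6 with 95.0, 84.9 and 93.9 TPM. These neighbours overlapped. Their order depended on the transcripts used. By the most abundant coding transcript Psma6 had 118.2, 105.9 and 117.7 TPM, above Psma2 in each library. The mean of Psma1 was then 96.3 TPM, against 93.8 TPM for Psma2, which has 1 coding transcript. As chosen by reads, Psma1 reached 78.3 ± 4.99, Psma7 74.0 ± 13.0 and Psma4 63.8 ± 2.75 TPM. The values of Psma7, 63.2, 70.2 and 88.4 TPM, come from a transcript for which no whole reads were obtained, so that its length is uncertain; every other gene of the 50 had whole reads. The other coding transcript of Psma7 had whole reads and stood at 90.2, 82.3 and 92.1 TPM, or 88.2 ± 5.20 TPM. Psma5 stood at 25.4 ± 2.21 TPM, and Psma3 was lowest with 13.9, 13.0 and 11.9 TPM, apart from every other gene of the ring in each library. By the most abundant coding transcript Psma3 had a mean of 19.2 TPM and was still lowest. With coding transcripts added it had 36.9 TPM, against 25.4 TPM for Psma5.

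Of the beta ring genes Psmb1 to Psmb7, whose median was 65.4 ± 6.66 TPM, Psmb1 was highest with 133.7, 118.9 and 120.3 TPM. That put it above 98.8% of coding genes and above each other gene of the set in every library. The noncatalytic subunits Psmb2, Psmb4 and Psmb3 followed at 65.4 ± 6.66, 49.1 ± 7.31 and 26.8 ± 4.82 TPM. Psmb5 was lowest of the ring in each library. The order of the alpha and beta ring medians depended on the transcripts used. As chosen by reads, the alpha median was lower in replicate 1 and higher in the other libraries, with a difference of 0.09 ± 0.23 on the log2 scale (exact sign-flip p = 0.50, n = 3). With Psma7 by its transcript with whole reads, a choice made after seeing the data, the alpha median was higher in 3 of 3 libraries, by 0.26 ± 0.09 (exact sign-flip p = 0.25). It was also higher in 3 of 3 libraries with the most abundant transcript (0.43), with transcripts added (1.16) and over genes with at least 90% unique sequence (0.24). Without replicate 1 the difference was 0.23, without replicate 2 it was 0.02 and without replicate 3 it was 0.03.

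The ATPase genes of the 19S base, Psmc1 to Psmc6, spanned a ratio of 2.24 between the highest and the lowest mean TPM, against 3.41 for the lid, 6.35 for the beta ring and 7.25 for the alpha ring. Psmc6 was highest at 88.2 ± 1.76 TPM, Psmc1 followed at 80.7 ± 5.45, Psmc3 at 63.1 ± 4.14, Psmc5 at 60.04 ± 2.08, Psmc2 at 57.6 ± 1.46, and Psmc4 was lowest at 39.3 ± 3.49 TPM. Psmc3, Psmc5 and Psmc2 overlapped with their neighbours in that order, and Psmc4 lay below the others in each library. The lowest genes of the other groups, Psma3, Psmb5 and Psmd11, had under 90% unique sequence, and Psmc4 had 100%. With at least 90%, 3 alpha ring genes ran from 74.0 to 91.3 and 4 beta ring genes from 49.1 to 124 TPM. Likewise, 7 lid genes ran from 34.3 to 63.9 and 5 ATPase genes from 39.3 to 88.2 TPM. The non-ATPase base genes were close to each other: the scaffold gene Psmd1 had 57.8 ± 1.83 TPM, its partner Psmd2 55.7 ± 3.94 TPM, and the ubiquitin receptor gene Psmd4 42.9 ± 2.29 TPM.

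In the lid, Psmd14, the deubiquitinating enzyme, had 65.94, 59.997 and 65.91 TPM, and Psmd7, its inactive partner, had 59.5, 63.2 and 69.1 TPM. The means of this dimer, 63.95 ± 3.42 and 63.93 ± 4.81 TPM, differed by less than the spread. Psmd8 reached 57.9 ± 3.83, Psmd6 52.6 ± 2.63, Psmd12 44.1 ± 0.779, Psmd13 41.0 ± 3.65 and Psmd3 34.3 ± 1.14 TPM. Psmd11, a lid subunit whose level is known to govern proteasome assembly in human stem cells, was lowest with 19.3, 20.02 and 16.9 TPM. With transcripts chosen by reads, Psmd11 did not overlap with the other lid genes. By the most abundant coding transcript it had a mean of 33.1 TPM, against 37.1 TPM for Psmd3. With coding transcripts added it had 161.4 TPM, against 71.4 TPM for Psmd3.

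The ATPase ring median exceeded that of the lid in each library, 61.6 ± 3.03 against 48.6 ± 1.61 TPM, by 0.34 ± 0.10 on the log2 scale (exact sign-flip p = 0.25, n = 3). The 14 core genes had a median of 66.7 ± 1.82 and the 17 genes of the 19S particle one of 57.0 ± 1.42 TPM, a difference of 0.22 ± 0.03 (exact sign-flip p = 0.25, n = 3). Both directions depended on how transcripts were combined. With the TPM of all coding transcripts of a gene added, which counts shared reads repeatedly, they were -0.30 and -0.073. Over the genes with at least 90% unique sequence, 7 of the core and 14 of the 19S particle, the second difference was 0.43, and the first was 0.19. Genes listed with several coding transcripts gain by adding: Psmd13 with 5 went from 41.0 to 318.5 TPM, whereas Psmb1 with 1 stayed at 124 TPM.

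The activators, which open the core without ATP, lay below the constitutive median of 59.4 TPM. Psme3, the subunit of the nuclear activator, had 28.8, 28.4 and 28.6 TPM, the smallest relative spread among the activators. Psme1 and Psme2 form 1 interferon-inducible activator ring together. They stood at 16.7 ± 1.45 and 6.88 ± 0.367 TPM, and Psme1 was higher by 1.27 ± 0.17 on the log2 scale in the 3 libraries (exact sign-flip p = 0.25, n = 3). Psme2 is 73.9% unique in sequence, against 95.3% for Psme1, and the part of shared sequence in this difference was not tested. Psme3 exceeded Psme1 by 0.77 ± 0.12 (exact sign-flip p = 0.25, n = 3), but lay 0.22 below it with coding transcripts added. Psme4, a large single-chain activator, had 8.31 ± 0.347 TPM. Psmf1, an inhibitor of the core, had 7.82 ± 0.326 TPM.

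The assembly chaperones, which help to build the complex and then leave it, also lay low. Of the core chaperones, Psmg2 had 12.1 ± 0.530, Psmg4 8.03 ± 0.652, Psmg3 7.23 ± 0.986 and Psmg1 7.15 ± 0.606 TPM. Psmg1 and Psmg2 act as a dimer, and Psmg2 was higher in each library. Psmg1, Psmg3 and Psmg4 overlapped. Of the base chaperones, Psmd5 had 16.2 ± 1.47, Psmd9 7.37 ± 0.458 and Psmd10 6.96 ± 0.330 TPM. Their group medians of 7.73 ± 0.401 and 7.37 ± 0.458 TPM lay close to the 8.22 TPM of expressed coding genes.

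The remaining genes had few reads or are not subunits. Psma8, the alpha subunit of the testis, had 1 read in replicate 2 and none in the others, where 3 reads, the limit that a count of 0 allows, correspond to 0.0346 and 0.0388 TPM. Psmb11, the beta subunit of the thymus, had 4, 2 and 3 reads. Psme2b had 1, 2 and 5 reads and is 70.9% unique in sequence. Whether its reads came from Psme2 was not tested. Psmc3ip carries the prefix because its protein was found with that of Psmc3 but acts in meiotic recombination; it had 1.68, 1.42 and 1.61 TPM.

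The low constitutive genes had transcripts that are less unique in the genome. Stretches of 50 bases, taken every 10 bases, were searched on both strands of 22 chromosomes. A stretch at no more than 1 place in the genome counted as unique. Those across a splice junction are absent from the gene's own locus, so 1 copy elsewhere did not count against them. Of the 31 genes, 21 had at least 90% unique stretches, with a median of 60.04 TPM and a range from 34.3 to 124 TPM. The other 10 had a median of 41.3 TPM, from 12.9 to 93.8 TPM. Of these 10, 5 lay under 30 TPM, and of the 21, 0 did. This split was looked at after the levels were seen and is a description. The 5 genes were Psmb5 with 47.0%, Psmb3 with 48.6%, Psma5 with 62.2%, Psma3 with 78.9% and Psmd11 with 86.8% of unique stretches. By its most abundant coding transcript Psmd11 stood at 33.1 TPM, above that limit. The others under 90% were Psma4 with 69.6%, Psmd2 with 81.5%, Psmc1 with 86.4%, Psma2 with 86.7% and Psmb7 with 87.5%, all above 50 TPM.

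**Figure D3:**
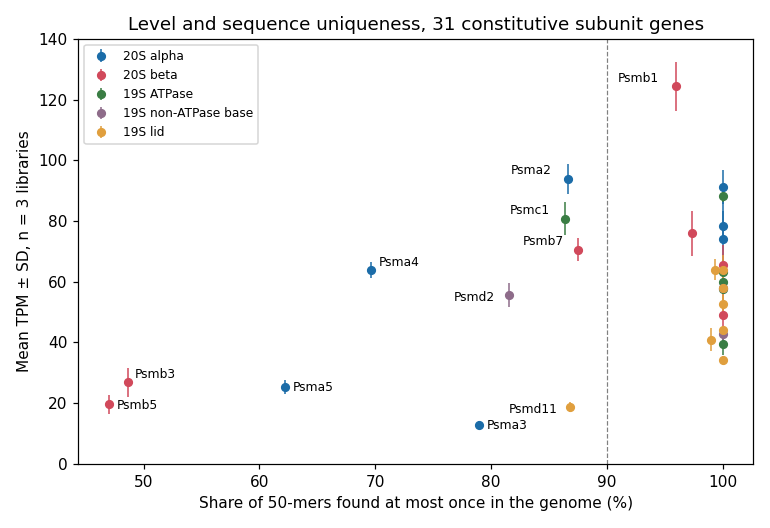
Mean TPM ± SD over 3 libraries against the share of 50-base stretches found at most once in the genome, in percent, for 31 constitutive subunit genes; the dashed line marks 90%. Genes under 30 TPM all lie left of the line, where others such as Psma2 at 93.8 TPM also lie.

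The spread of the constitutive genes, as SD of log2 levels, was 0.74 over the 31 genes. It was 0.45 over the 21 with at least 90% unique stretches and 1.03 over the 10 others. Expressed coding genes had 1.67. Of pseudogenes, only those with a row and a symbol of the prefix were looked at. Psmb5-ps had 0 reads in each library, Psmb6-ps2 had 1, 0 and 0, and Psmb7-ps2 had 2, 2 and 1. Copies under other names were not searched. These counts cannot show where shared reads belong, because leaving out reads that fit several places would also lower them. Whether reads that fit several places were left out is not given in the sources used here, and the part of shared sequence in the low levels was not tested.

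A second overlap touched Psmb5. The row of Mir686, a microRNA model on the same strand, lies within Psmb5 exons over 109 bases and stood at 85.2 TPM, against 19.6 TPM for Psmb5. The reads of the pair cannot be told apart there. Psmd1 shares 301 bases on its strand with Gm21972 (29.8 TPM), and Psmg3 shares 237 bases with Gm26938 (4.87 TPM). Genes on the other strand overlapped Psmb7 (Nek6), Psmb9 (Tap1, over 212 bases), Psmd13 (Sirt3) and Psmc3ip (Mlx). Counting separated the strands: 16 transcripts that lie opposite the exons of a gene on the reverse strand had a median of 0.062% of its TPM, against 106.5% for 8 on its own strand.

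The libraries did not rank alike across the set. Of the 45 expressed genes, 26 were highest in replicate 1 (57.8%), against 28.2% of all expressed coding genes. Replicate 2 was highest for 6 (13.3%, against 40.4%) and replicate 3 for 13 (28.9%, against 31.4%). Replicate 2 was lowest for 25 genes (55.6%, against 25.4%), replicate 1 for 6 (13.3%, against 33.6%) and replicate 3 for 14 (31.1%, against 40.9%). All 7 beta ring genes were highest in replicate 1, while of the 7 alpha ring genes 3 were highest in replicate 1 and 4 in replicate 3. The median log2 ratio of replicate 1 to replicate 2 was 0.29 over the beta ring.

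The same order moved with transcript length over all genes. The constitutive genes had short transcripts, with a median exonic length of 1440 bases against 3086 for expressed coding genes. Genes of like level were the 3694 expressed coding genes with a mean inside the range of the constitutive genes. Of the ones under 1000 bases, 62.6% were highest in replicate 1. The share was 51.0% from 1000 to 1500 bases, 43.9% from 1500 to 2000, 27.2% from 2000 to 3000 and 15% from 3000 bases on. The median log2 ratio of replicate 1 to replicate 2 went from 0.18 in the shortest class to -0.11 in the longest. Under 2000 bases, 51.2% of the genes of like level and 15 of 26 constitutive genes (57.7%) were highest in replicate 1. Over the 4 beta ring genes under 1000 bases, the median ratio was 0.36. Marker sums also differed between libraries: pan-neuronal markers summed to 2294, 2341 and 2052 TPM and were all lowest in replicate 3, and astrocyte markers summed to 388, 408 and 464 TPM. Their part in the library order was not tested.

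**Figure D4:**
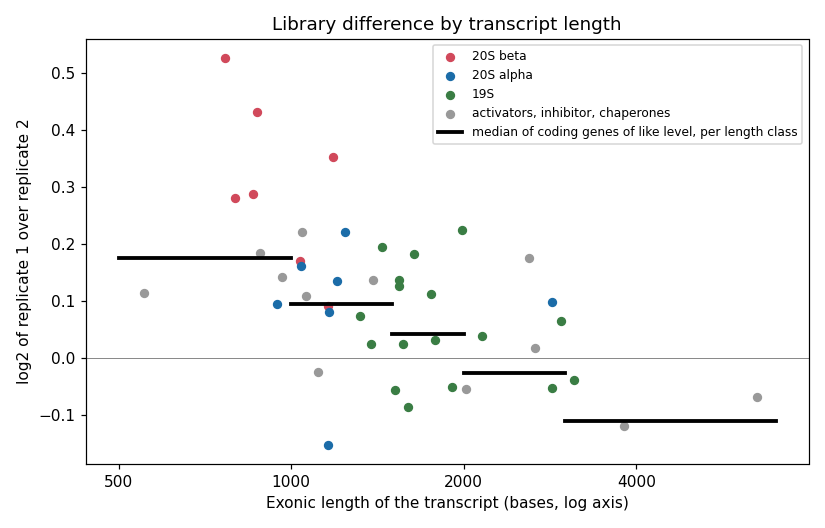
The log2 ratio of replicate 1 to replicate 2 for the constitutive subunit, activator, inhibitor and chaperone genes against exonic length in bases on a log axis, with the median of coding genes of like level per length class as black lines. The medians go from 0.18 below 1000 bases to -0.11 from 3000 bases on, and the beta ring genes lie above 0.

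Within those differences the libraries were close. The median coefficient of variation of the constitutive genes was 6.57%, against 7.22% for expressed coding genes of like level and 7.88% for all expressed coding genes. The genes of like level share the range only. Their median was 24.9 TPM against 59.4 TPM for the constitutive genes, and their median exonic length 2837 against 1440 bases.

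Genes that work with the proteasome but lack the prefix covered a wider range than the constitutive subunit genes. Pomp, which matures the beta ring, had 85.3 ± 6.52 TPM, Sem1, a small lid subunit, 29.4 ± 1.85 TPM, and Adrm1, a ubiquitin receptor, 5.03 ± 0.412 TPM. Only 47.0% of the Adrm1 stretches are unique. All 6 genes for bound enzymes and adaptors were expressed, led by the deubiquitinase gene Usp14 at 68.5 ± 4.50 and Zfand5 at 43.97 ± 4.90 TPM, with Fbxo7 lowest at 1.90 ± 0.166 TPM. All 7 genes for transcription of proteasome genes were expressed too: Nfe2l1 had 58.5 ± 2.64 TPM, beside the constitutive median of 59.4 TPM, Nfyb of the NF-Y complex 15.5 ± 0.948, and Ddi2, the protease that releases Nfe2l1, was lowest at 3.65 ± 0.228 TPM.

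The 8 genes for ubiquitin shuttles and Vcp, an unfoldase, ran from Rad23b at 81.3 ± 8.55 and Ubqln1 at 43.2 ± 2.05 down to Vcp at 8.39 ± 0.883 TPM. Vcp is 41.0% unique. Of 7 genes for ubiquitin itself and its activation, all expressed, Uchl1, an abundant neuronal hydrolase, led with 379.6, 341.1 and 289.8 TPM. Ubb had 152.6 ± 24.6 TPM and Rps27a was lowest at 1.87 ± 0.179 TPM, with 31.03% and 32% unique stretches. Of 9 genes for antigen presentation and interferon response, which act with the immunoproteasome, 5 were expressed. B2m had 33.2 ± 2.85 and H2-D1 5.599 ± 0.321 TPM, and Nlrc5 was lowest at 0.085 ± 0.001 TPM.

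The 50 genes are spread over 16 chromosomes, with 10 on chromosome 11 and 6 each on chromosomes 2 and 14. Some lie beside each other. Psmb5 lies 3410 bases from Psmb11, whose mean was 0.015 TPM, against 19.6 for Psmb5. Psme1 and Psme2 lie 5911 bases apart at 16.7 and 6.88 TPM. In the set, 8 genes (16%) have the start of a coding gene that runs the other way within 1000 bases upstream of their own start. The share was 7.99% of all coding genes. Pairs with overlapping starts, such as Psmb9 and Tap1 at 0.266 and 0.880 TPM, were not counted. Where a counted partner had a level, the proteasome gene was higher. Psmb1 had 124 against 1.59 TPM for Tbp, whose start lies 137 bases away. Psmc2 had 57.6 against 17.1 TPM for Dnajc2, and Psmc5 60.04 against 9.11 TPM for Ftsj3. The other counted pairs with values were Psma7 with Ss18l1, Psmd10 with Atg4a, Psme2 with Rnf31 and Psmg2 with Cep76. Their partner levels ran from 1.31 to 11.5 TPM.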

How the data were processed

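RNA was measured in 3 libraries of 1 group. Build mm10 was used, with STAR 2.5.3a, Subread 1.4.6, featureCounts and FastQC 0.11.2, per the submitters' processing notes. The authors deposited TPM values for 84660 transcripts, per the file headers, and no column belonged to another sample. Transcripts were matched by identifier to GENCODE release M21 on GRCm38, and 98.1% matched. TPM times exonic length gave whole reads, within 0.01 of a read, for 98.0%, 97.9% and 98.0% of the rows above 0. Where only the transcript ends in the table gave whole reads, those ends set the length (6232 rows).

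Genes were compared within libraries on the log2(TPM + 0.1) scale, and an exact sign-flip permutation test (two-sided) was run. A mean of at least 1 TPM counted as expressed. The steps were tested on simulated data. The gene set, lists and tests were chosen with earlier results of these data known. Every gene of the set is named. Of partner lists the 2 highest and the lowest are named, and of marker lists the highest and lowest, plus any at 0. Tyrobp, C1qa, Csf1r, Cx3cr1, Itgam and P2ry12 were added after their values were seen. The listed genes Ecm29 and Paaf1 were not used here. A further listed gene and a promoter motif are not reported here. Alternatives covered the pseudocount, the transcript used, leaving out each replicate, the minimum level, unique sequence, scaling and, added after seeing the data, transcript length, the Psma7 transcript and the set without Psmc3ip and Psme2b. The search of 50-base stretches used transcript sequence from GRCm38. Python 3.11.15, numpy 2.4.6, pandas 2.3.3, scipy 1.17.1, numba 0.67.0 and matplotlib 3.10.9 were used.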

Additional observations from a re-analysis of the deposited data

How the results depend on the processing

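Of 126 values under alternatives, 115 kept the direction of a difference, stayed within 1.5 times a count or within the replicate spread; 8 moved and 3 reversed. Sizes of differences that kept their direction could still change, as given below. The 115 take in values that could not change. Psmb7 and Psmb10 have 1 coding transcript each, so their difference stayed at 3.39 under each choice of transcript. Adding the TPM of all coding transcripts, which counts shared reads repeatedly, turned the core minus 19S difference to -0.073, the ATPase ring minus lid difference to -0.30 and Psme3 minus Psme1 to -0.22. The SD of log2 levels over the constitutive genes moved from 0.74 to 0.69 with the most abundant transcript, to 1.01 with transcripts added and to 0.45 over genes with at least 90% unique stretches, and ran from 0.73 to 0.76 with a replicate left out. Their median coefficient of variation was 6.47% with transcripts added and 6.98% when rescaled to nuclear coding genes, against 6.57%, and 6.56% with Psma7 by its transcript with whole reads, which was chosen after seeing the data and gave 0.26 for the alpha minus beta difference. Among 35 genes under 2000 bases, chosen after seeing the data, 22 were highest in replicate 1 (45.6% of all such coding genes were) and 1 in replicate 2 (14.4%). Replicate 2 was lowest for 22 (45.3%) and replicate 3 for 8 (32.2%). The alpha minus beta difference was 0.43 with the most abundant transcript, 1.16 with transcripts added, 0.24 over unique genes and 0.02 to 0.23 with a replicate left out. The core minus 19S difference was 0.43 over unique genes, and ATPase ring minus lid 0.19 there and with the most abundant transcript. With a pseudocount of 1, Psmb5 minus Psmb8 was 4.16 and Psmb6 minus Psmb9 5.92; with 0.01 they were 7.003 and 8.15. Psme1 minus Psme2 was 2.14 with transcripts added, and the constitutive genes lay 4.31 above all coding genes with a value. The cause was not tested in any of these. No paired analysis was possible because the 3 libraries form 1 group, so no samples pair across groups. Depth limits Psma8, Psmb11, Psme2b, Psmb8 and Psmb9, which had at most 24 reads in a library.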
